A study of Mus musculus with 6 samples.

Results

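The genes described here are 8 regulators of mRNA decay that act on inflammatory transcripts, Zfp36, Zfp36l1, Zfp36l2, Zc3h12a, Zc3h12c, Btg1, Btg2 and Rc3h1, out of 18194 genes with a probe set that the platform annotation gives a single symbol. They were chosen by name. Each gene is represented by the probe set of its symbol with the highest mean over the 6 arrays. The 8 genes had 16 such probe sets among 34958, and the chosen probe set of each was at or above the median of all probe sets on all 6 arrays, so that all 8 were among the 13587 genes tested. The study measured macrophages washed from the peritoneum of thioglycollate-injected mice, either unstimulated (0 h) or after 2 or 4 h with 100 ng/ml of LPS, the lipopolysaccharide of bacterial envelopes that Toll-like receptor 4 senses. The mice were wild-type or LysM-Cre+;Akirin2fl/fl, in which Cre driven by the lysozyme M gene of myeloid cells removes floxed Akirin2. The latter are called Akirin2 KO here. All samples came from a C57BL/6 x 129Sv background, and the labels do not say whether the wild-type mice carried the Cre, how old the mice were, or how many mice gave a sample. There was a single array per genotype and time, 6 in all, and hence no spread within a condition.

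Tristetraprolin, the product of Zfp36, and its relatives ZFP36L1 and ZFP36L2 bind AU-rich elements in cytokine mRNAs through a pair of zinc fingers and recruit the CCR4-NOT complex, which removes the poly(A) tail. Regnase-1, the product of Zc3h12a, is an endoribonuclease that cuts stem-loops in mRNAs such as that of Il6, and Zc3h12c encodes a relative of it, regnase-3. Roquin-1, the product of Rc3h1, binds similar stem-loops, and BTG1 and BTG2 bind the deadenylase subunits CNOT7 and CNOT8 and promote tail shortening. In macrophages several of these genes are themselves switched on by Toll-like receptor signalling and limit the output of the response that induced them.

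The deposited values are log2 expression values, and a difference of 1 is 2-fold. Tests are contrasts of an additive limma fit with LPS time and genotype as terms, over all 13587 genes and all 6 arrays, called at a Benjamini-Hochberg adjusted p under 0.05. Such a p sets the size of a difference against how unlike the responses of both genotypes were, since the arrays of a time are 1 wild-type and 1 KO array. The error of each gene is also drawn towards that of all genes. Neither this p nor the standard errors and confidence intervals of these fits measure the spread between mice. Akirin2 itself read 7.43, 7.47 and 7.33 in wild-type at 0, 2 and 4 h and 5.18, 5.54 and 4.91 in KO, so it was low on all 3 arrays labelled KO. All 8 macrophage markers reached the median of all probe sets on at least 1 array, which is the floor for a gene to be tested, with a mean log2 level of 8.54 to 8.73 in wild-type and 8.30 to 8.49 in KO. Lists of other cell types had means of 3.52 to 4.11 for 3 B cell markers, 3.15 to 3.25 for 5 T and NK cell markers, 3.01 to 3.10 for 4 mast cell markers and 3.04 to 3.18 for 4 eosinophil markers, against array medians of 3.18 to 3.23. The mean of 6 neutrophil markers was 4.47 to 4.70 in wild-type and 4.56 to 4.71 in KO. Of these, Ltf and Ngp did not reach the floor. The macrophage marker Itgam stayed near the floor, ranging from 3.06 to 3.47 over the 6 arrays, and was below it on some. The high macrophage mean therefore does not describe Itgam. With LPS the neutrophil gene S100a8 rose at both times (0.67 and 1.26), while its partner S100a9 had -0.18 and -0.46 and was not called. Among macrophage markers Cd14 rose (1.74 and 1.53), and Mertk (-0.88 and -1.64) and Fcgr1 (-0.66 and -0.88) fell at both times, and the fibroblast marker Pdgfra rose at 4 h (1.02). The other markers tested were not called with LPS, and the part of all these in the LPS results was not tested.

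LPS moved the decay regulators in both directions. At 2 h 4 of the 8 rose, Zfp36, Zc3h12a, Zc3h12c and Btg1, and Zfp36l2 fell. Over all genes tested 3.96% were called higher and 2.89% lower at 2 h, so that 57.8% of the called genes were higher, or 68.1% with arrays centred on their medians. At 4 h 3 of the 8 were called higher, Zfp36, Zc3h12a and Zc3h12c, and 2 lower, Zfp36l1 and Zfp36l2, against 7.76% and 7.61% of all genes. In either direction 5 of the 8 were called at each time, where 6.85% of all genes were called at 2 h and 15.4% at 4 h. The median fitted difference of the 8 genes was 0.74 at 2 h and 0.11 at 4 h, beside -0.042 and -0.026 over all genes. Whether a lower value reflects fewer cells of a kind or less RNA per cell cannot be told apart in bulk samples.

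**Figure D1:**
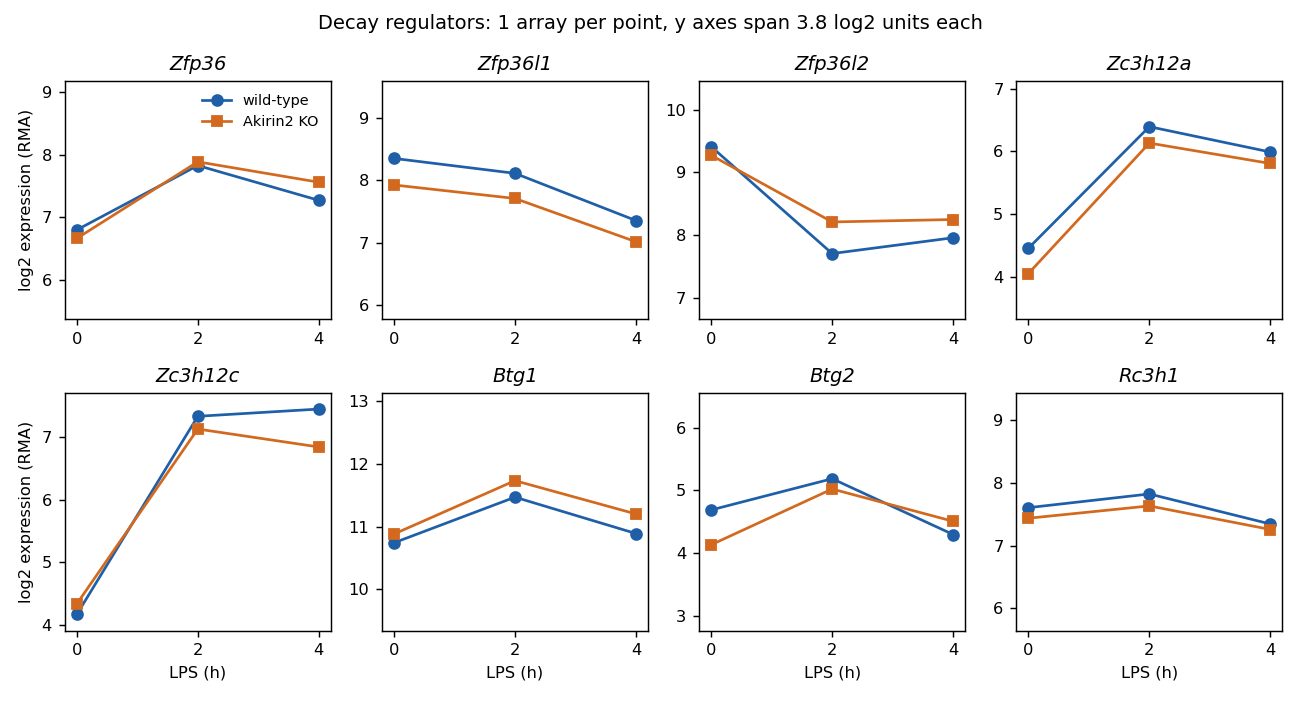
Log2 expression of the 8 decay regulators (y axis, each panel spanning the same number of log2 units) against hours of LPS (x axis), with 1 array per point, circles for wild-type and squares for Akirin2 KO. Zc3h12a and Zc3h12c climb steeply by 2 h and stay high, Zfp36l2 drops by 2 h, Zfp36l1 drops mainly between 2 and 4 h, and Rc3h1 stays within 0.57 log2 units.

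The sequences before the start sites are shown for 4 genes whose levels changed with LPS, the 3 that were higher at both times and Zfp36l1, which fell at 4 h. They are the 250 bases before the annotated start, 5′ to 3′ on the gene's strand, from RefSeq on GRCm38.p6, where 7 of the 8 genes, all but Zfp36l2, were matched. The window of Zfp36 is at chr7:28379229-28379478 on the minus strand, Zc3h12a at chr4:125127882-125128131 on the minus strand, Zc3h12c at chr9:52168407-52168656 on the minus strand and Zfp36l1 at chr12:80113014-80113263 on the minus strand. The series does not name a genome build. Capitals mark a match, on either strand, to the NF-kB consensus, the CArG box bound by serum response factor, AP-1 (TGANTCA) or the cAMP response element CRE (TGACGTCA), which do not overlap one another in these windows.
Zfp36: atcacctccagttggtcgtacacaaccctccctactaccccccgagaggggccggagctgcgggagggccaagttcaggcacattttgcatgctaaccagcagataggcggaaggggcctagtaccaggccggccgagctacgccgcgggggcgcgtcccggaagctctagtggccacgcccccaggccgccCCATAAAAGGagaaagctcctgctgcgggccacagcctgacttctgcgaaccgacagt
Zc3h12a: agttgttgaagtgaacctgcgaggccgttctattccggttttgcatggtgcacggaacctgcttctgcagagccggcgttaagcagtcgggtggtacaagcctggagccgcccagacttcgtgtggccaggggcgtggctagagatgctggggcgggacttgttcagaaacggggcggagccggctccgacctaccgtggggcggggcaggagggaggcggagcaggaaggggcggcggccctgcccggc
Zc3h12c: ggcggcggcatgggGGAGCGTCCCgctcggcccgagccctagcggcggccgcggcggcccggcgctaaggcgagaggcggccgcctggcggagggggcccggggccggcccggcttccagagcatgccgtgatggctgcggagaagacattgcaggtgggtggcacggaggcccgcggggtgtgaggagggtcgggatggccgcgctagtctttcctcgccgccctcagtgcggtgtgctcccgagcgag
Zfp36l1: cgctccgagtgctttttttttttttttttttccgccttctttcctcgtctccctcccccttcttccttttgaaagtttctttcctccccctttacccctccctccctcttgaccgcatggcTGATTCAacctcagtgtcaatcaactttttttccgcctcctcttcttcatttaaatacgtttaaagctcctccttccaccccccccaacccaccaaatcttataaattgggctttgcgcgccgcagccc
The Zfp36 window held a CArG box, CCATAAAAGG, from 58 to 49 bases before the start, and 1.47% of 32851 annotated windows of this length held such a box. The Zc3h12c window held a match to the NF-kB consensus, GGAGCGTCCC as read on the gene's strand, from 236 to 227 bases before this start, with 7.25% of all windows holding one. That gene has a further annotated start whose window held no match. In Zfp36l1 an AP-1 match, TGATTCA, lay from 129 to 123 bases before the start, and in Rc3h1 another, TGACTCA, from 133 to 127, with 6.75% of all windows holding one. Btg2 held the CRE, TGACGTCA, from 166 to 159 bases before its start, as did 1.55% of all windows. Zc3h12a and Btg1 held none of the 4 motifs in this window. A match describes these letters only.

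The tristetraprolin family split. Zfp36 read 6.80, 7.83 and 7.27 in the wild-type arrays at 0, 2 and 4 h and 6.66, 7.88 and 7.56 in KO. Its 4 LPS arrays all lay above both unstimulated arrays, with the 2 h arrays highest in each genotype. In the fit Zfp36 rose by 1.12 at 2 h (SE 0.16, 2.18-fold, limma adjusted p = 0.00449) and by 0.68 at 4 h (SE 0.16, 1.61-fold, adjusted p = 0.0233). Wild-type had 2.04-fold more than its 0 h array at 2 h and 1.39-fold more at 4 h, and KO 2.33-fold and 1.86-fold more.

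Zfp36l2 went the other way. It read 9.41, 7.70 and 7.95 in wild-type against 9.27, 8.21 and 8.25 in KO, so both unstimulated arrays lay above all 4 LPS arrays. It fell by 1.39 at 2 h (SE 0.18, 2.61-fold lower, limma adjusted p = 0.00306) and by 1.24 at 4 h (SE 0.18, 2.36-fold lower, adjusted p = 0.00247). The change from 2 to 4 h was 0.15 (SE 0.18, adjusted p = 0.825), so the low level was reached by 2 h and the later difference was within its error.

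Zfp36l1 fell at 4 h. It read 8.35, 8.11 and 7.36 in the wild-type arrays and 7.92, 7.71 and 7.02 in KO, and within each genotype the order was 0 h, then 2 h, then 4 h. Both 4 h arrays lay below the other 4, while the 0 h and 2 h arrays overlapped across genotypes, the unstimulated KO array lying below the 2 h wild-type array. At 2 h the fitted difference was -0.23 (SE 0.14, limma adjusted p = 0.445), which did not pass. At 4 h it fell by 0.95 (SE 0.14, 1.93-fold lower, adjusted p = 0.00291).

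The regnase genes had the largest increases of the 8. Zc3h12c read 4.17, 7.33 and 7.45 in wild-type against 4.34, 7.13 and 6.84 in KO, with all 4 LPS arrays above both unstimulated ones. The NF-kB match lay near the far end of 1 of its windows, as in 7.25% of all windows, and a link to the response was not tested. Zc3h12c rose by 2.98 at 2 h (SE 0.20, 7.87-fold, limma adjusted p = 7.19e-05) and by 2.89 at 4 h (SE 0.20, 7.41-fold, adjusted p = 4.74e-05). From 2 to 4 h it was higher by 0.12 in wild-type and lower by 0.29 in KO, and the fitted change of -0.086 (SE 0.20, adjusted p = 0.917) did not pass.

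Zc3h12a, the regnase-1 gene, had 4.45, 6.39 and 5.99 in wild-type, and in KO it had 4.05, 6.13 and 5.81. Again no LPS array overlapped an unstimulated one, and 2 h was the highest time in each genotype. It rose by 2.01 at 2 h (SE 0.15, 4.03-fold, limma adjusted p = 0.000137) and by 1.65 at 4 h (SE 0.15, 3.13-fold, adjusted p = 0.000197). Rc3h1, whose product shares mRNA targets with regnase-1, was not called at either time. Its values were 7.60, 7.82 and 7.34 in the wild-type arrays and 7.44, 7.63 and 7.26 in KO. Its fitted differences were 0.21 at 2 h (95% confidence interval -0.13 to 0.54, adjusted p = 0.491) and -0.22 at 4 h (-0.55 to 0.11, adjusted p = 0.376). These intervals leave out changes of 2-fold in either direction, but they do not include the spread between mice.

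Btg1 and Btg2 had their highest values at 2 h. Btg1 read 10.74, 11.47 and 10.89 in wild-type against 10.88, 11.74 and 11.20 in KO, so that the 2 h arrays stood above the other 4. It rose by 0.79 at 2 h (SE 0.15, 1.73-fold, limma adjusted p = 0.0159), and at 4 h the difference from 0 h was 0.23 (SE 0.15, adjusted p = 0.353). That difference passed with eBayes set to trend and robust (adjusted p = 0.0201), within a range of 0.0201 to 0.554 over all settings. Btg2 read 4.69, 5.18 and 4.29 in the wild-type arrays and 4.13, 5.02 and 4.51 in KO, again with both 2 h arrays highest. Its difference at 2 h was 0.69 (SE 0.20, adjusted p = 0.0785), short of the threshold, and that at 4 h was -0.0089 (SE 0.20, adjusted p = 0.982). The Btg2 difference at 2 h passed when arrays were centred (0.76, adjusted p = 0.0481), with another eBayes setting and without the 4 h arrays, and its adjusted p over all settings ran from 0.0218 to 0.536.

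Of the 8 genes, 7 had a fitted value that was lower at 4 h than at 2 h, where 48.3% of all genes had one. The exception was Zfp36l2, at 0.15. The contrast of 4 h with 2 h passed only for Zfp36l1, which fell by 0.72 (SE 0.14, limma adjusted p = 0.0418), where 1.11% of all genes were called lower. That call was lost with probe sets averaged (-0.50, adjusted p = 0.114) and with arrays centred (-0.76, adjusted p = 0.0554), within a range of 0.000326 to 0.114 over all settings. The fitted changes of Btg2 (-0.70, adjusted p = 0.130), Btg1 (-0.56, 0.111), Zfp36 (-0.44, 0.271), Rc3h1 (-0.43, 0.225) and Zc3h12a (-0.37, 0.340) did not pass after adjustment, while their unadjusted p was under 0.05. Some of them passed in other settings. Btg1 passed with eBayes set to trend and robust (adjusted p = 8.65e-06) and without the 0 h arrays (0.0354), within a range of 8.65e-06 to 0.116. Btg2 passed without the 0 h arrays (0.0145, range 0.0145 to 0.346) and Rc3h1 under trend and robust (0.0462, range 0.0462 to 0.235).

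**Figure D2:**
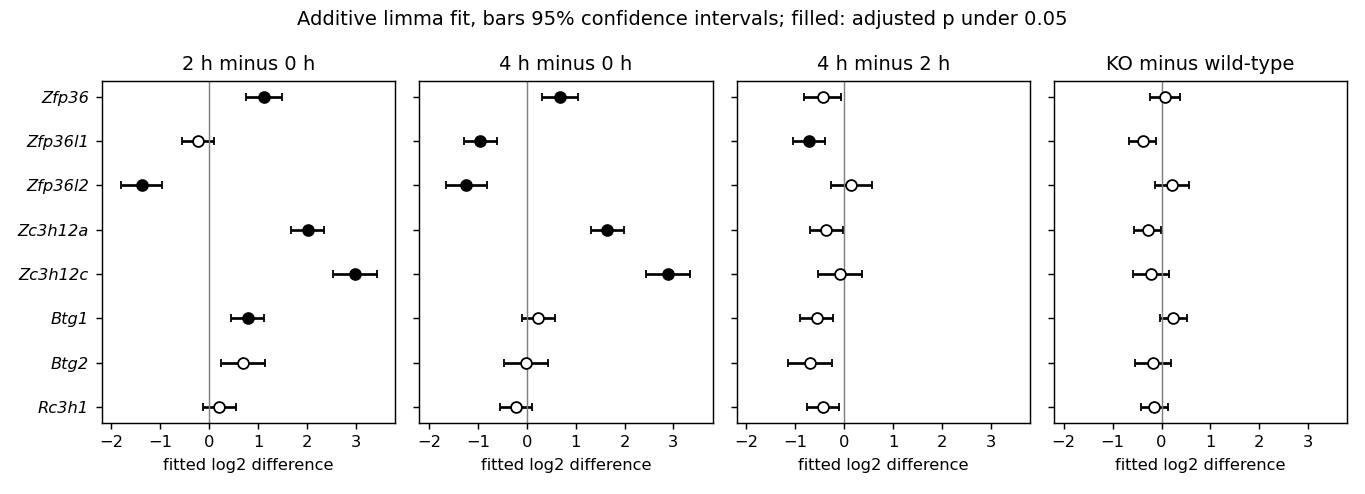
Fitted log2 differences of the 8 genes (x axis) for 2 h minus 0 h, 4 h minus 0 h, 4 h minus 2 h and KO minus wild-type, with 95% confidence intervals as bars and filled points for a limma adjusted p under 0.05. Filled points are 5 at 2 h, 5 at 4 h, 1 for 4 h minus 2 h and 0 for the genotype difference.

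Between the genotypes, limma called 0 of the 8 genes over the 3 times, where 1.95% of all genes were called. At an unadjusted p under 0.05 the counts were 2 of the 8 and 2091 of 13587. Those 2 were Zfp36l1, at -0.39 in KO (95% confidence interval -0.66 to -0.12, adjusted p = 0.165), and Zc3h12a, at -0.28 (-0.56 to -0.0036, adjusted p = 0.317). Zfp36l1 was lower in KO by 0.42, 0.40 and 0.34 at 0, 2 and 4 h, and Zc3h12a by 0.40, 0.26 and 0.18. Both were lower in KO at all 3 times by the chosen probe sets. With probe sets averaged, which takes in a Zc3h12a probe set below the floor, the 2 h difference of Zc3h12a was 0.054. The share of all genes that kept their sign at all 3 times was not counted. On single arrays 0 of the 8 genes were 2-fold apart between genotypes at 0, 2 or 4 h, where 1.93%, 0.949% and 1.45% of all genes were.

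Btg1 stood on the other side. It was higher in KO by 0.14, 0.26 and 0.31 at 0, 2 and 4 h, a fitted 0.24 (-0.037 to 0.51, limma adjusted p = 0.392). Rc3h1 was lower in KO by 0.17, 0.19 and 0.088, a fitted -0.15 (-0.42 to 0.12, adjusted p = 0.607). Zfp36 (0.071, -0.23 to 0.37), Zfp36l2 (0.22, -0.12 to 0.56), Zc3h12c (-0.21, -0.58 to 0.15) and Btg2 (-0.17, -0.54 to 0.20) differed in sign between times. For Zfp36 and Zfp36l2 that rests on the 0 h difference of -0.14, which was 0.026 and 0.022 with arrays centred, and 0.017 for Zfp36l2 with probe sets averaged. All 8 intervals leave out a 2-fold difference, but they do not include the spread between mice. With eBayes set to trend and robust, 2 of the 8 passed, Zfp36l1 (adjusted p = 0.0192) and Btg1 (adjusted p = 0.0124). Under that setting 419 of all 13587 genes were called higher and 464 lower, beside 121 and 144 in the main fit. Over all settings the adjusted p of Zfp36l1 ran from 0.0192 to 0.596 and that of Btg1 from 0.0124 to 0.842.

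Other measures moved with genotype on the same arrays. The mean of the macrophage markers was lower in KO as given above, and Fcgr1 was called lower among them (-0.89, limma adjusted p = 0.0115). Mesothelial and fibroblast markers had a mean log2 level over 9 genes of 5.28 to 5.37 in wild-type and 4.74 to 5.04 in KO, where 8 of 9 reached the floor, all but Lum, and Col1a2 was called lower. The 3′ minus 5′ difference of the Actb control probe sets, a sign of RNA quality, was 4.09 to 4.22 in wild-type and 4.36 to 4.64 in KO, and that of Gapdh 4.33 to 4.42 and 4.34 to 4.52. Their part in the genotype differences was not tested.

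The LPS responses of the genotypes were set side by side next. By the 2-fold rule on single arrays the same 4 genes passed at 2 h in wild-type and in KO, Zfp36, Zc3h12a and Zc3h12c higher and Zfp36l2 lower, where 4.45% and 3.35% of all genes passed. At 4 h Zc3h12a and Zc3h12c were higher and Zfp36l2 lower by this rule in each genotype, beside 8.47% and 6.54% of all genes. Zc3h12c was 8.95-fold and 9.69-fold higher at 2 and 4 h in wild-type, and 6.92-fold and 5.67-fold in KO. Zc3h12a was 3.84-fold and 2.90-fold higher in wild-type and 4.23-fold and 3.38-fold in KO. The wild-type response was the larger one for Zc3h12c and Zfp36l2, and the KO response for Zfp36, Zc3h12a, Btg1 and Btg2 at 2 h.

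**Figure D3:**
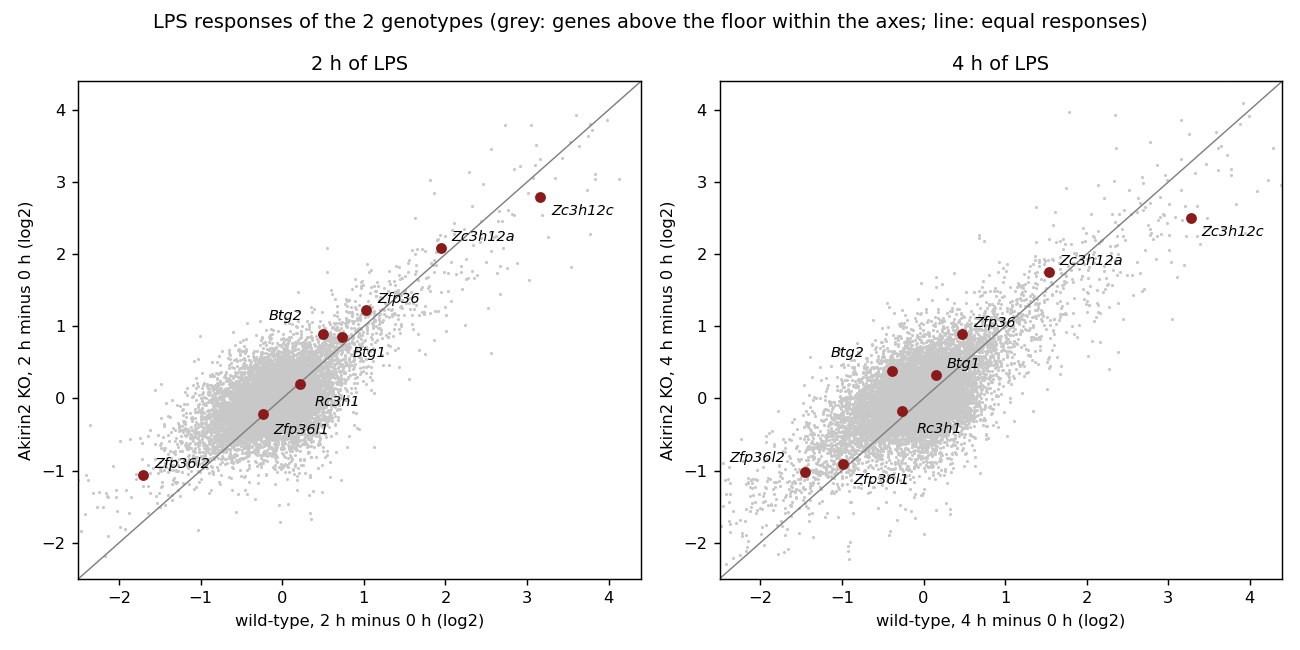
LPS minus 0 h in Akirin2 KO (y axis, log2) against wild-type (x axis, log2) at 2 h and 4 h, 1 array for each value, with the 8 genes in dark red over the genes above the floor in grey and a line of equal responses. Zc3h12c lies below the line at 4 h (3.28 in wild-type, 2.50 in KO), and Zfp36l2 above it at 2 h (-1.71 in wild-type, -1.06 in KO).

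The difference of the responses, KO minus wild-type, lay between -0.37 and 0.64 at 2 h and between -0.77 and 0.77 at 4 h, with 0 of the 8 genes 2-fold apart, where 1.74% and 3.14% of all genes were. The extremes at 4 h were Zc3h12c (-0.77) and Btg2 (0.77), and Zfp36l2 had 0.64 at 2 h. In the limma fit with a genotype by stimulation term 0 of the 8 passed, where 0.0294% of all genes did. The unadjusted p was under 0.05 for 1 of the 8, Btg2 (0.58, 95% confidence interval 0.0051 to 1.15, adjusted p = 0.388), and for 1739 of all genes. Zc3h12c had -0.57 (-1.15 to 0.0063, adjusted p = 0.395) and Zfp36l2 0.54 (-0.014 to 1.09, adjusted p = 0.402). These 3 intervals reach past 1, so a 2-fold difference in response is within the error of these arrays.

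The size of a response difference depends on the scaling. Across all genes this term had a median of 0.10, which centring the arrays turned to -0.11. After centring, the terms of Zfp36l1, Zc3h12a, Btg1 and Rc3h1, which were 0.029 to 0.18, became negative, and the Zc3h12c responses were 2-fold apart at 4 h (-1.04). Those of Zfp36l1 and Rc3h1 also turned with arrays normalized again. The signs for Zfp36, Zc3h12c, Zfp36l2 and Btg2 held under both scalings.

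Other probe sets of the same genes showed which of these values hold across probes. They were read on the same 6 arrays and are not replicates of a condition. Zc3h12c has another probe set, with 2.82, 5.90 and 6.13 in wild-type against 2.89, 5.48 and 5.23 in KO. It too was lower in KO at 4 h, by 0.90, where the chosen probe set was lower by 0.61. The 2 further Btg1 probe sets were higher at 2 h than at 0 h in both genotypes, by 0.53 and 0.77 in wild-type and by 0.73 and 1.41 in KO. For Zfp36l2 the next probe set was lower at 2 h by 0.55 in wild-type and 0.36 in KO, and the last stayed below the floor on all 6 arrays. In that next probe set the response difference, KO minus wild-type, was 0.20 at 2 h and 0.021 at 4 h. The chosen Zfp36l2 probe set had 0.64 and 0.43.

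For the other genes the further probe sets were near background. The second Zc3h12a probe set read 2.75 to 3.18 and did not reach the floor on any array. The second Zfp36l1 probe set reached it on 1 array (2.76 to 3.27) and the second Btg2 probe set on 2 (2.88 to 3.39). That of Btg2 was lower at 2 h than at 0 h in both genotypes, by 0.31 and 0.26, against the direction of the chosen one. Zfp36 and Rc3h1 have 1 probe set each, so their values have no such comparison across probes. Averaging the probe sets of a gene left the calls against 0 h in place but gave smaller differences, 1.07 at 2 h and 0.85 at 4 h for Zc3h12a, -0.63 and -0.64 for Zfp36l2 and -0.58 at 4 h for Zfp36l1. For Zc3h12c the averages were 2.90 and 2.85.

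**Figure D4:**
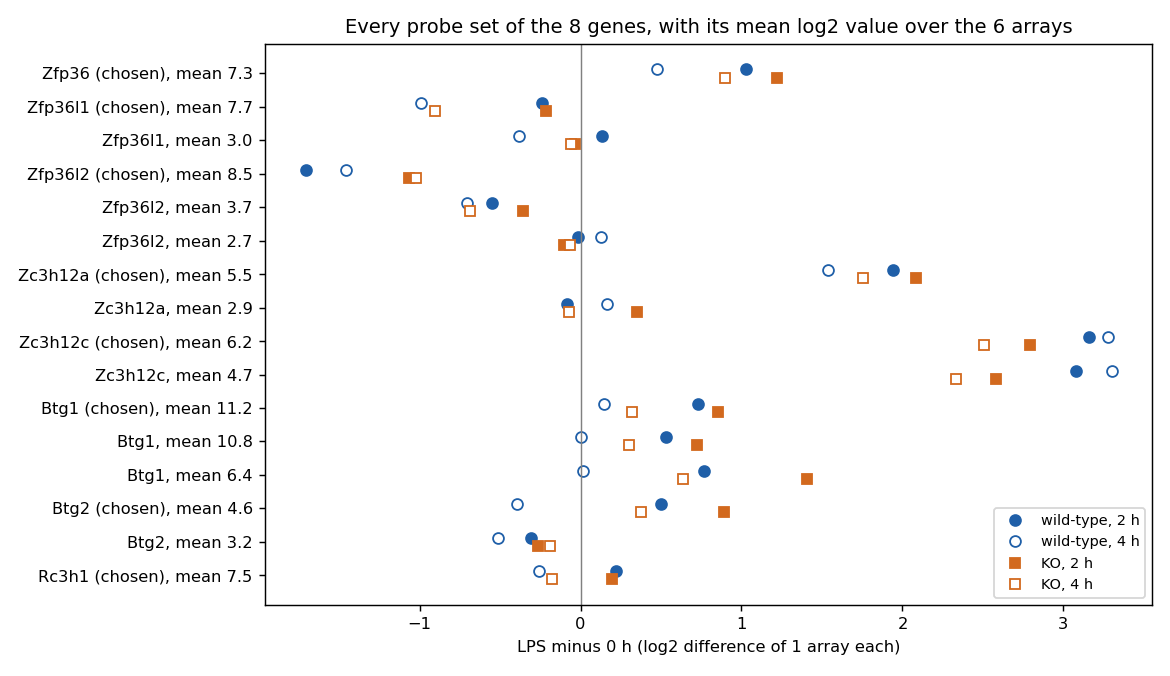
LPS minus 0 h (x axis, log2 difference of 1 array each) for all 16 probe sets of the 8 genes (y axis, with the mean log2 value over the 6 arrays), circles for wild-type and squares for Akirin2 KO, filled at 2 h and open at 4 h. The 2 probe sets of Zc3h12c lie together far to the right, and those with a mean near 3 run from -0.51 to 0.35.

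Genes listed under steps of mRNA decay were taken next. Of 15 genes tested from the deadenylation list, 1 rose at 2 h, and at 4 h 1 rose and 2 fell. This is near the shares of all genes called (6.85% and 15.4%). The gene that rose was Noct, which encodes nocturnin, by 1.88 at 2 h (limma adjusted p = 0.000276) and by 0.71 at 4 h (adjusted p = 0.0179). It read 6.26, 8.29 and 6.94 in the wild-type arrays and 6.68, 8.41 and 7.42 in KO and fell from 2 to 4 h by 1.17 (adjusted p = 0.00906). The CCR4-type deadenylase gene Cnot6l (-0.66, adjusted p = 0.0167) and the poly(A) ribonuclease gene Parn (-0.55, adjusted p = 0.0406) were the 2 that fell at 4 h.

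Decapping, exosome and nonsense-mediated decay genes were called in numbers too small to set apart from the same shares of all genes, 6.85% at 2 h and 15.4% at 4 h. Of 14 decapping and 5′ to 3′ decay genes 0 passed at 2 h in limma (3 at an unadjusted p under 0.05) and 1 rose at 4 h, the decapping enzyme gene Dcp2. Dcp2 read 5.59, 5.74 and 6.97 in wild-type against 5.72, 5.72 and 6.62 in KO. It rose by 1.14 at 4 h (limma adjusted p = 0.00244), and by 1.06 from 2 to 4 h (adjusted p = 0.0161). Of 14 exosome and SKI genes 0 passed at 2 h (1 unadjusted) and 1 rose at 4 h, the exosome ribonuclease gene Dis3 (0.63, adjusted p = 0.0224). Of 7 nonsense-mediated decay genes 0 passed at either time in limma, with 1 and 0 at an unadjusted p under 0.05.

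Relatives and antagonists of the 8 genes were also measured. Of 4 relatives tested, Tob1, which encodes another antiproliferative protein that binds deadenylases, fell by 1.25 at 4 h (limma adjusted p = 0.00128), and 0 passed at 2 h (2 unadjusted). Of 9 other proteins that bind AU-rich elements or stem-loops, Elavl1 rose at 2 h (0.65, adjusted p = 0.0376) and 4 h (0.86, adjusted p = 0.0052). Its product HuR binds AU-rich elements and stabilises many of the mRNAs that tristetraprolin destabilises. In lists this short a single call cannot be told from the rate over all genes (6.85% for 2 h, 15.4% for 4 h). The median fitted differences of these decay groups, from deadenylation to the binding proteins, lay between -0.20 and 0.15 at both times.

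Signalling genes whose products act on the tristetraprolin and regnase-1 proteins were called in 1 direction. Of 10 tested, 3 rose at 2 h and 5 at 4 h, and 0 fell, beside 3.96% and 7.76% of all genes called higher. Malt1, the protease that cleaves regnase-1 and roquin-1 in T cells, rose by 2.29 at 2 h (limma adjusted p = 0.00202) and 2.52 at 4 h (adjusted p = 0.000573), and its partner gene Bcl10 by 0.86 and 0.54. Malt1 read 5.68, 8.44 and 8.87 in the wild-type arrays and 6.51, 8.33 and 8.36 in KO, so it rose less in KO. Its genotype by stimulation term was -1.14, beside a median of -0.082 over the 10, and was not called. Mapkapk2, the kinase that phosphorylates tristetraprolin, rose by 0.75 at 2 h (adjusted p = 0.038) and 0.92 at 4 h (adjusted p = 0.00812). The median of the 10 was 0.45 at 2 h and 0.48 at 4 h. Between genotypes 0 genes of these groups passed in limma. The unadjusted p was under 0.05 for 4 of the 10 signalling genes and 3 of the 15 deadenylation genes, and for 2091 of all 13587 genes.

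**Figure D5:**
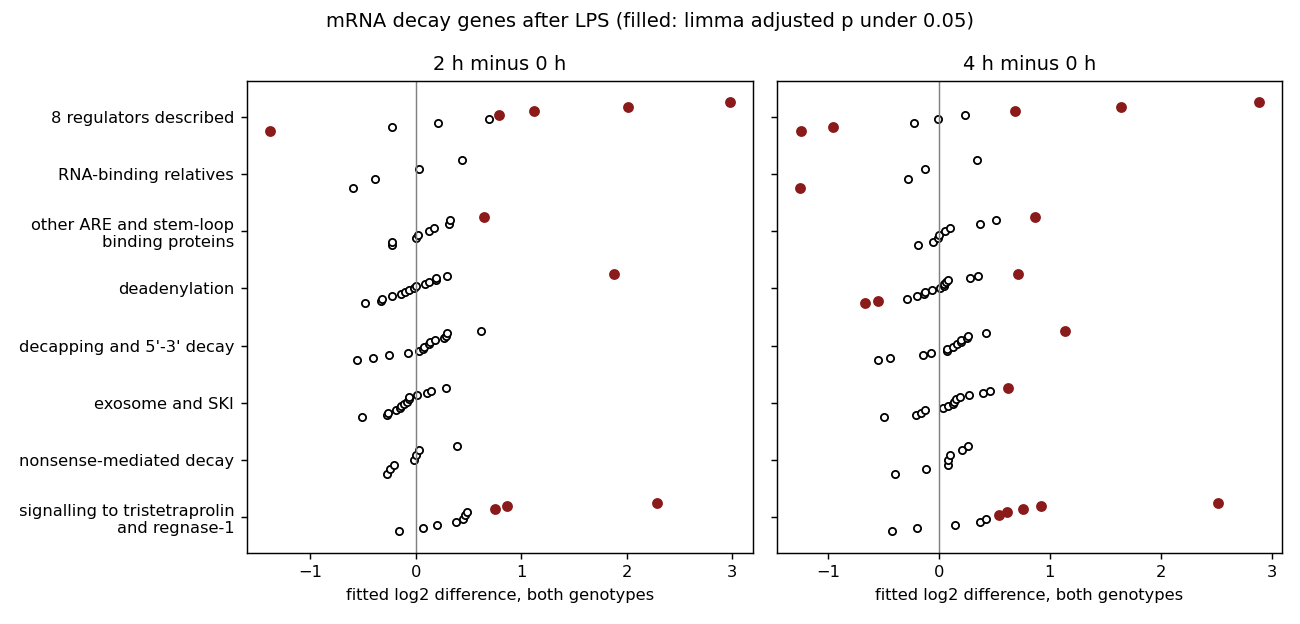
Fitted log2 differences (x axis) of the genes of each group (y axis, 1 point per gene) at 2 h and 4 h against 0 h over both genotypes, filled for a limma adjusted p under 0.05. The filled points farthest from 0 are Zc3h12c among the 8 regulators, Malt1 among signalling genes and Noct among deadenylation genes at 2 h.

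Most mRNAs on which these regulators are known to act rose with LPS. Of 14 described as targets of tristetraprolin, Zfp36 itself among them, 10 rose at 2 h and 10 at 4 h, beside 3.96% and 7.76% of all genes, with 0 lower and a median of 3.05 and 2.90. Tnf read 4.95, 10.10 and 10.10 in the wild-type arrays and 4.19, 9.69 and 9.59 in KO, and Ier3 4.79, 6.09 and 6.03 against 3.52, 5.15 and 5.01. Of 11 tested mRNAs described as targets of regnase-1 or roquin, which share Tnf, Il1b and Ptgs2 with the other list and hold Zc3h12a, 8 rose at each time. Both lists were chosen with earlier results of these data known, and they count Zfp36 and Zc3h12a again. Many of their genes encode cytokines and chemokines that respond to LPS, so these shares describe the lists and do not test the regulators. Il6 read 3.20, 6.97 and 7.13 in wild-type against 3.12, 5.39 and 5.41 in KO. Between genotypes 3 of the 14 fell in KO, Ier3 (-1.08), Il1b (-0.82) and Il1a (-0.72), and 2 of the 11, Il1b and Icosl (-0.73), while 0 rose, beside 1.06% of all genes called lower. From 2 to 4 h 0 of the 14 passed in limma (3 unadjusted), and of the 11 only Lcn2 rose, by 2.12 (adjusted p = 0.00314).

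Genes whose pattern over the 6 arrays was most like that of a decay regulator were drawn from 2234 genes with a range of at least 1. The arrays share 3 LPS times, so any gene with the same time course scores high, and Pearson's r is given as a description. Zfp36 was most like Arg2, C9orf72 and Plscr1 (r = 0.996, 0.995 and 0.989). Zc3h12a was most like the NF-kB pathway genes Relb and Nfkbie and the elongation factor gene Ell2 (0.996, 0.995 and 0.995), and Zc3h12c like Nlrp3, Pde4b and Cxcl1 (0.999, 0.997 and 0.997). Zfp36l2 was most like Flcn, Pomk and Dnajb14 (0.999, 0.997 and 0.995) and Zfp36l1 like B3glct, Hopx and Slc9a9 (0.994, 0.990 and 0.987). Btg1 was most like Noct, Trib1 and Lcat (0.977, 0.964 and 0.932), Btg2 like Dock4, Lpin2 and Hivep2 (0.986, 0.959 and 0.938), and Rc3h1 like Mpp7, Pitpnc1 and Egr1 (0.956, 0.942 and 0.941).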

How the data were processed

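The arrays are 6 Affymetrix mouse arrays, 1 for each genotype and LPS time. Each deposited value is the log2 expression of a probe set, which the authors obtained by RMA per the submitters' processing notes. RMA subtracts background, equalises the arrays' distributions and combines probes, which compresses differences near background. Its version is not given in the sources used here. With arrays there is no read depth, and the number of arrays limits precision. Of 45101 probe sets, 34958 have a single symbol in the platform annotation. A gene's value is that of its brightest probe set by mean. Of 18194 genes, 13587 reached the array's median on at least 1 array, which is called the floor.

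Fits used lmFit and eBayes of limma 3.58.1 (R 4.3.3), with Benjamini-Hochberg adjustment over all 13587 genes and a threshold of 0.05. The additive fit had 2 residual and 6.35 prior degrees of freedom, and the fit with the genotype by stimulation term had 1 and 11.5. The residual of that second fit is how the genotype difference changed from 2 to 4 h. Differences of single arrays have no test and were counted at 2-fold. The fits were run on simulated data with independent noise around values fitted to these arrays, which hold no spread between mice. The genes, lists and tests were chosen with earlier results of these data known, and the promoter motifs after the files were seen. Named genes are the 8 regulators, up to 4 called genes of a list by size, those needed as background (Tnf, Il6, Ier3), the 3 genes most like each regulator, and markers. Alternatives were other floors, probe sets averaged, no probe sets of the _x_at and _s_at kinds, quantile normalization again, arrays centred, eBayes with trend and robust, a 1.5-fold rule and leaving out each time.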

Additional observations from a re-analysis of the deposited data

Results flagged for a closer look

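Some values had opposite signs in the groups compared. Each rests on single arrays, and the difference was not tested there. The LPS response of Btg2 at 4 h was -0.39 in wild-type and 0.37 in KO, a difference of 0.77. The KO minus wild-type difference of Btg2 ran from -0.56 at 0 h to 0.21 at 4 h, which is the same 0.77. For Zc3h12c it was 0.17 at 0 h and -0.61 at 4 h, 0.77 apart. For Zfp36l2 it was -0.14 at 0 h and 0.50 at 2 h, 0.64 apart, and for Zfp36 -0.14 at 0 h and 0.29 at 4 h, 0.42 apart. With arrays centred the 0 h values of Zfp36l2 and Zfp36 were 0.022 and 0.026, and with probe sets averaged that of Zfp36l2 was 0.017, so the signs of these 2 genes no longer oppose. The genotype by stimulation term, which tests the mean of both LPS times, passed for 0 of these 4 genes in limma, with adjusted p from 0.388 to 0.659 and an unadjusted p under 0.05 for 1 of them, Btg2.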

How the results depend on the processing

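Over the alternatives, 4 to 5 of the 8 genes were called higher and 1 lower at 2 h against 0 h, and 3 to 4 higher and 2 lower at 4 h. Of the fitted values of single genes, 305 kept direction and side of the threshold, 10 newly passed, 2 no longer passed and 11 changed sign. The count called lower from 2 to 4 h was 1. It was 0 with probe sets averaged or arrays centred, and 3 under eBayes with trend and robust or without the 0 h arrays. Under trend and robust 1 gene was called higher and 1 lower between genotypes, beside 419 and 464 of all genes. With probe sets averaged, which takes in probe sets near background, 2 genes were 2-fold apart in wild-type at 2 h and 1 at 4 h, and 1 in KO at 4 h. With arrays centred 1 response difference at 4 h was 2-fold. With a 1.5-fold rule the counts were 5 for KO at 4 h, 2 and 1 from 2 to 4 h in wild-type and KO, 1 between genotypes at 4 h, and 1 and 2 for response differences at 2 and 4 h.

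Signs turned for Zfp36l2 from 2 to 4 h with probe sets averaged (-0.0026), for Btg2 at 4 h with arrays normalized again (0.046) or centred (0.025), and for the genotype difference of Btg2 without the 0 h arrays (0.023) and of Zfp36 without the 4 h arrays (-0.038). The genotype by stimulation term turned for Zfp36l1 (-0.011) and Rc3h1 (-0.022) with arrays normalized again, and with arrays centred for Zfp36l1 (-0.16), Zc3h12a (-0.033), Btg1 (-0.066) and Rc3h1 (-0.18). The cause was not tested.

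Over all genes, 121 were called higher and 144 lower between genotypes. The counts were 76 and 66 with arrays centred, 419 and 464 under trend and robust, 370 and 294 without the 0 h arrays, 72 and 86 without the 2 h arrays, and 81 and 95 with probe sets averaged. At 2 h 538 and 393 became 541 and 254 with arrays centred, 841 and 828 under trend and robust and 676 and 639 without the 4 h arrays. From 2 to 4 h 212 and 151 became 164 and 100, 123 and 125, 433 and 442, and 486 and 438 with probe sets averaged, arrays centred, trend and robust, and no 0 h arrays. For the genotype by stimulation term 1 and 3 became 20 and 42 with arrays normalized again, 155 and 101 under trend and robust, 0 and 1 with probe sets averaged, and 0 and 0 under the remaining 4.

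No paired analysis was possible because each condition has 1 array and the labels give no replicate numbers. Signal near background limits what the second probe sets of Zfp36l1, Zc3h12a and Btg2 can show.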
